A study of Mus musculus with 4 samples.

Results

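The genes described here are the translation initiation and elongation factors, the proteins that place the ribosome at a start codon and then move it along the mRNA. All protein-coding rows whose symbol starts with Eif or with Eef1 or Eef2 were taken, leaving out the eIF2 kinases (Eif2ak), which gave 59 of the 14157 genes in the table. The members sit on 20 chromosomes. RNA-seq was made from esophageal tumours induced with 4NQO (4-nitroquinoline 1-oxide, a chemical carcinogen) in C57BL/6 mice. The groups were 2 libraries from mice labelled S100A14 CKO (KO 1 and KO 8) and 2 from wild type mice (WT 3 and WT 6), and all 4 carried the same carcinogen treatment. The labels do not give the promoter or Cre line behind the CKO, the age or sex of the mice, or the number of mice behind the libraries. The p-values therefore cover the spread between libraries only, which may be technical.

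Translation starts when eIF2 brings the initiator tRNA to the small ribosomal subunit. eIF3 holds that complex together, the eIF4 factors bind and unwind the capped mRNA, and eIF5 and eIF5B complete the joining of the large subunit. Elongation then runs on eEF1A, which delivers aminoacyl-tRNAs, its exchange factor eEF1B, and eEF2, which moves the ribosome by a codon. Many elongation factor mRNAs and a few initiation factor mRNAs start with a short pyrimidine tract (a TOP, or terminal oligopyrimidine, motif), which ribosomal protein mRNAs share and through which mTORC1 controls their translation.

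The libraries held 11132019 to 16182109 counted reads, but ribosomal RNA took 47.0% to 76.4% of them, and the nuclear protein-coding total was 1530127 and 1052423 reads in KO 1 and KO 8, against 2107060 and 1289852 in WT 3 and WT 6. The members held 37369 and 24097 reads in KO, against 54948 and 38843 in WT. S100a14 had 0 and 1 read in KO, against 463 and 347 in WT. KO 8 stood apart: the Pearson correlation of its log2 values with the other libraries was 0.769 to 0.816 across all tested genes, against 0.908 to 0.915 among the other three. In the same library the 6 fibroblast markers summed to 850 scaled reads, against 97.6 in KO 1, 108 in WT 3 and 239 in WT 6. The skeletal muscle markers summed to 71.0 and 276 in KO, against 62.5 and 64.2 in WT, with 6 of 8 tested genes higher in both KO libraries. The macrophage markers summed to 86.0 and 153 in KO, against 33.8 and 38.1 in WT (6 of 7 higher in both KO libraries). The smooth muscle markers summed to 132 and 167 in KO, against 18.5 and 76.9 in WT (4 of 5 higher in both KO libraries), and the endothelial markers to 21.6 and 21.9 in KO, against 31.5 and 47.0 in WT (4 of 5 lower in both KO libraries). The basal squamous keratins and their companions summed to 17878 and 4136 in KO and 21408 and 19992 in WT, and KO 8 was the lowest. Krt5 and Krt14 made up most of these sums. Krt15 was also lowest in KO 8, but Itga6 had 263 and 282 in KO, against 150 and 152 in WT. Trp63 (244 and 241 in KO, 235 and 407 in WT) and Itgb4 (617 and 432 in KO, 320 and 501 in WT) overlapped. The suprabasal markers summed to 2606 and 140 in KO, against 12247 and 3382 in WT, with 6 of 7 lower in both KO libraries. The part of this cell makeup in the results that follow was not tested, and in bulk tissue fewer cells of a type and less RNA per cell cannot be told apart.

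Levels are given as the table's scaled reads, in which 1 read was worth 0.220 and 0.258 in KO and 0.193 and 0.318 in WT. The scaling left the nuclear protein-coding genes with summed values of 336492 and 271193 in KO and 406697 and 409805 in WT. Setting those sums equal moved the median log2 fold change of all tested genes by 0.37, and this scaling is given beside the medians and counts of the role groups. Shares of nuclear protein-coding reads, also given, do not depend on the scaling.

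No member passed the test between KO and WT. With limma on log2(scaled reads + 1) and Benjamini-Hochberg adjustment over 12304 genes, 0 of the 57 members tested reached an adjusted p of 0.05, the smallest adjusted p was 0.926 (Eif3f), and 1 gene of all tested (0.00813%) passed. At an unadjusted p under 0.05 limma gave 2 members, Eef1g and Eef2, both lower in KO, where 5.25% of all genes reached that level (3.62% lower and 1.63% higher in KO). With protein-coding sums set equal limma instead gave 3 members, Eif2s2, Eif5 and Eif5b, all higher in KO. With quantile normalization it gave 0. The shares of all genes at that level were not counted under these settings, and which members reached it depended on the scaling. At the same level edgeR gave 0 members (5.03% of all genes). DESeq2, fitted without the filter, gave 4 (4.78% of all genes), of which Eef1g and Eef2 were tested in limma and Eef1a2 and Eif3j2 were too low for its filter. Without KO 1 the limma adjusted p still passed for 0 members, although 4.14% of all genes passed, and without KO 8 it passed for 0 members and 0.0488% of all genes. The log2 fold change was negative for 33 of the 57 members, against 52.5% of all genes. The members' median log2 fold change was -0.17, against -0.03 for all genes. Both KO libraries lay below both WT libraries for 23 of the 57 members (40.4%), against 19.3% of all genes, and above them for 4 (7.02%), against 14.5% of all genes. With protein-coding sums set equal, these counts became 11 below (19.3% of members, 8.82% of all genes) and 18 above (31.6% of members and 31.6% of all genes), and the members' median became 0.20 against 0.34 for all genes. These shares of all genes are the reference for the counts of every role group below.

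**Figure D1:**
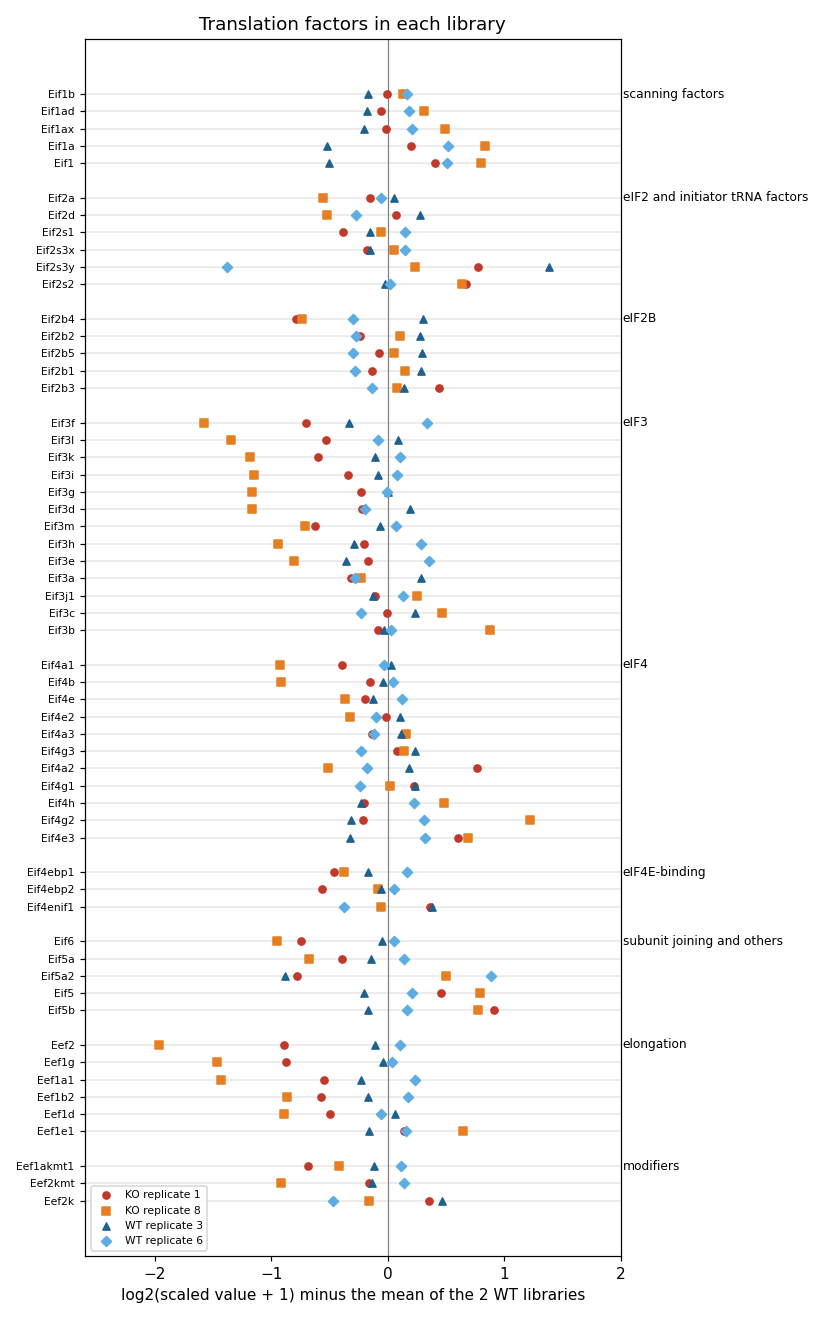
Log2 deviation of each library from the WT mean, on the log2(scaled reads + 1) scale, for the 57 tested members grouped by role, with KO libraries and WT libraries as separate points. The elongation factors other than Eef1e1 have both KO points below both WT points, and the lowest KO 8 point is that of Eef2 (-1.96).

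The elongation factors had the lowest KO levels relative to WT of the role groups. Of 7 genes 6 were tested, and 5 of the 6 had both KO libraries below both WT libraries, against 19.3% of all genes. The median log2 fold change of the 6 was -0.86 (-0.56 in KO 1 and -1.16 in KO 8). The 5 were Eef1a1, Eef1b2, Eef1d, Eef1g and Eef2, and they kept that separation when protein-coding sums were set equal, where the group median was -0.43. Under that scaling 8.82% of all genes were below. As a share of nuclear protein-coding reads, the 7 genes held 1.39% and 0.936% in KO, against 1.62% and 2.05% in WT. Without Eef1a1 and Eef2 the share was 0.119% and 0.113% in KO, against 0.154% and 0.169% in WT.

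Eef2, the translocase, had 1261 and 599 scaled reads in KO, against 2171 and 2514 in WT. Both KO libraries were below both WT libraries, and KO 8 was the lowest of the 4. The log2 fold change was -1.43 (SE 0.55, n = 2 per group, limma adjusted p = 0.926). Its promoter is shown because Eef2 had the lowest log2 fold change of the tested members and a pyrimidine run lies shortly after its annotated start. The stretch is RefSeq's, build GRCm38.p6, 30 bases before to 30 after the annotated start, chr10:81176601-81176660 on the plus strand, with the run in capitals.
Eef2: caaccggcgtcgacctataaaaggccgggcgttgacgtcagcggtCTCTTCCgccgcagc

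Eef1a1, which encodes the main carrier of aminoacyl-tRNA, was the most abundant member. It had 3021 and 1635 scaled reads in KO, against 3770 and 5201 in WT, and the groups did not overlap. The log2 fold change was -0.99 (SE 0.58, limma adjusted p = 0.931). Per kilobase of exon, on the scaled-read scale, Eef1a1 averaged 934 in KO and 1799 in WT and Eef2 averaged 280 in KO and 705 in WT, ranks 1 and 2 among the members in both groups. Reads of Eef1a1 per read of Eef2 were 2.40 and 2.73 in KO and 1.74 and 2.07 in WT (exact two-sided permutation p = 0.333, the smallest that 2 against 2 allows). Eef1a2, the paralog known from muscle and neurons, had 1 and 23 reads in KO, against 1 and 0 in WT. The reads were in KO 8, the library with the highest skeletal muscle markers, and the gene did not pass the filter on low values.

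The subunits of the exchange factor eEF1B were low in the same libraries. Eef1g, the gamma subunit, had 197 and 131 scaled reads in KO, against 353 and 373 in WT, with a log2 fold change of -1.17 (SE 0.44, limma adjusted p = 0.926). Eef1b2, the beta subunit that exchanges the nucleotide, had 137 and 112 in KO, against 182 and 231 in WT. Eef1d, the delta subunit, had 57.4 and 43.5 in KO, against 84.9 and 78.2 in WT. The 3 genes had both KO values below both WT values. Eef1e1, whose product sits on the multi-tRNA synthetase complex, had 8.80 and 12.9 in KO and 6.95 and 8.90 in WT, and its groups overlapped in scaled reads but not with protein-coding sums set equal, where both KO values were above both WT values.

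The direction of the initiation factors as a whole depended on the scale. The 49 genes counted as initiation genes are all members without the elongation factors and their modifiers. They include genes with other roles, such as Eif5a, Eif6, Eif4a3, Eif4ebp1 and Eif4ebp2. They summed to 3484 and 3635 scaled reads in KO, against 3981 and 3901 in WT, so both KO sums were below both WT sums. The same genes held 1.04% and 1.34% of nuclear protein-coding reads in KO, against 0.979% and 0.952% in WT, and both KO shares were above both WT shares. Reads of elongation factors per read of initiation factors were 1.34 and 0.698 in KO (mean 1.02 ± 0.457, SD, n = 2), against 1.65 and 2.15 in WT (mean 1.90 ± 0.357, SD, n = 2). The mean of the log2 ratios in KO minus that in WT was -0.96, and the exact two-sided permutation p was 0.333, the smallest possible here. Without KO 8 the value was -0.49 and without KO 1 it was -1.43.

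**Figure D2:**
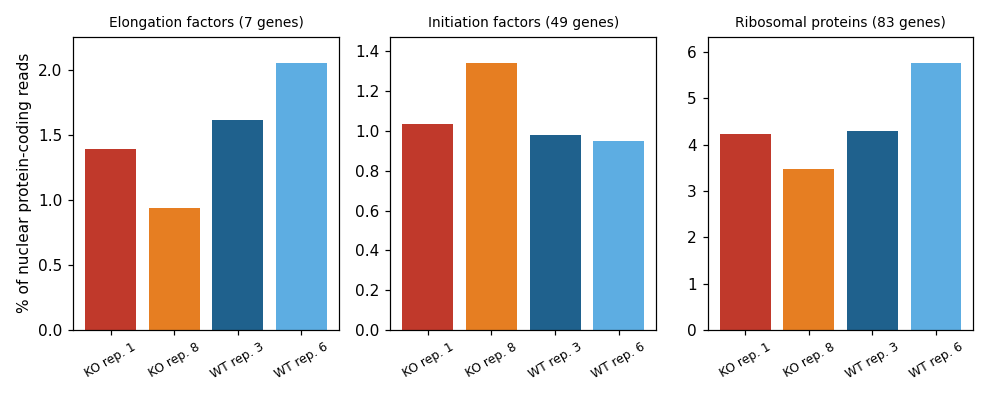
Share of nuclear protein-coding reads (%, vertical axis from 0) in each library for the 7 elongation factor genes, the 49 initiation factor genes and 83 ribosomal protein genes, KO libraries to the left of WT libraries. The elongation bars are lower in both KO libraries (1.39% and 0.936%) than in both WT libraries (1.62% and 2.05%), and the initiation bars are higher in both KO libraries.

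eIF3, the large scaffold of the initiation complex, had 13 of 14 genes tested. Both KO libraries were below both WT libraries for 7 of them (Eif3d, Eif3f, Eif3g, Eif3i, Eif3k, Eif3l and Eif3m) and above for 0, with a median log2 fold change of -0.67 (-0.23 in KO 1 and -0.94 in KO 8). Of all genes, 19.3% were below and 14.5% above. With protein-coding sums set equal the median was -0.24, and of the 7 genes Eif3f, Eif3k, Eif3l and Eif3m still did not overlap. Under that scaling 8.82% of all genes were below. Eif3a, Eif3b and Eif3c, grouped after their values were seen, had a median of 0.23 and overlapping libraries in scaled reads. Of these, Eif3a was negative (-0.27). The 9 other subunits d to m without j had a median of -0.70. Eif3j1, a shorter subunit (783 coding bases) left out of both sets, had a log2 fold change of 0.07 and also overlapped. The share of eIF3 in nuclear protein-coding reads was 0.378% and 0.471% in KO and 0.418% and 0.360% in WT, and these overlapped. Reads of the other eIF3 genes per read of Eif3a, Eif3b and Eif3c were 0.642 and 0.332 in KO and 0.569 and 0.891 in WT, which also overlapped (exact two-sided permutation p = 0.667).

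Eif3f had 41.1 and 21.9 scaled reads in KO, against 53.3 and 85.1 in WT, a log2 fold change of -1.14 (SE 0.50, limma adjusted p = 0.926). Eif3l had 65.5 and 36.8 in KO, against 101 and 89.6 in WT. Eif3k, one of the smallest subunits, had 43.8 and 28.9 in KO, against 62.0 and 72.1 in WT. In all 3 the KO 8 value was the lowest of the 4. Eif3m, which with Eif3f and Eif3h belongs to the ring of PCI and MPN domain subunits, had 36.1 and 33.8 in KO, against 53.5 and 58.8 in WT. Eif3d, the subunit that can itself bind a cap, had 80.5 and 41.5 in KO, against 108 and 82.3 in WT, where KO 1 and WT 6 were close. Eif3g had 56.1 and 28.9 in KO, against 66.2 and 65.8 in WT, and Eif3i had 33.6 and 18.8 in KO, against 40.5 and 45.4 in WT. For both genes KO 1 was nearer to WT than to KO 8. Eif3e and Eif3h overlapped, since their WT 3 values (44.4 and 54.8) were below their KO 1 values (50.6 and 58.1).

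The 4 eIF3 promoters below are shown because these genes did not overlap between groups under either scaling and hold a pyrimidine run near the start (a C followed by at least 6 pyrimidines on the coding strand, within 20 bases before to 30 after the start). They are RefSeq's, build GRCm38.p6, 30 bases on each side of the start, 5′ to 3′ on the gene's strand. Eif3f is at chr7:108934385-108934444 (plus), Eif3k at chr7:28981859-28981918 (minus), Eif3l at chr15:79075193-79075252 (plus) and Eif3m at chr2:105016998-105017057 (minus). Capitals mark the runs and, in Eif3f, also the core AAGATGGC known for the factor YY1, which overlaps a run.
Eif3f: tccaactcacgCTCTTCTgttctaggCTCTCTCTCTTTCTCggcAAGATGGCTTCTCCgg
Eif3k: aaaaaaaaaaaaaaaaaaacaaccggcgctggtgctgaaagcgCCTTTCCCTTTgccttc
Eif3l: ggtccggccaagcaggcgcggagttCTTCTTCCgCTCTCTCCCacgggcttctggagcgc
Eif3m: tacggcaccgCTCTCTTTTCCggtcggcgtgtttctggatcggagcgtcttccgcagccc

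Eif3a, the core scaffold subunit and the third most abundant member by summed scaled reads, had 550 and 583 in KO, against 835 and 562 in WT. Eif3b had 116 and 226 in KO and 120 and 125 in WT. Eif3c had 108 and 149 in KO and 127 and 91.8 in WT. None of the 3 separated the groups in scaled reads, and Eif3b was highest in KO 8. With protein-coding sums set equal, Eif3b, Eif3c and Eif3j1 had both KO libraries above both WT libraries. Eif3j1, the loosely bound subunit, had 31.7 and 41.0 in KO and 31.3 and 37.5 in WT. Its paralog Eif3j2 had 0 and 0 reads in KO and 5 and 8 in WT, which is at least 4.39-fold lower in KO against a floor of 3 reads over the group. It did not pass the filter, and reads of the near-identical pair may be split by the counting.

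**Figure D3:**
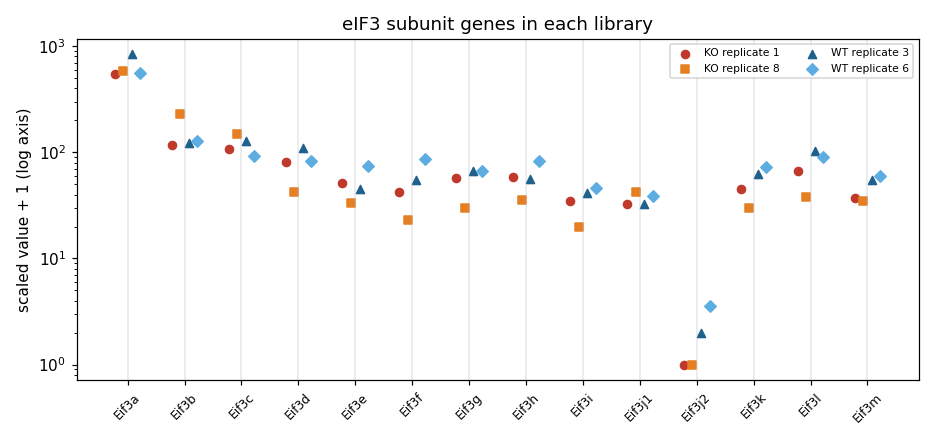
Scaled reads + 1 (log axis) of the 14 eIF3 genes in each library, KO points to the left of WT points. Eif3a, Eif3b and Eif3c overlap between groups, while 7 of the other tested subunits have both KO points under both WT points, with KO 8 the lowest of the 4. Eif3j2, which was not tested, has both KO points at 0 reads, under both WT points.

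The cap-binding and helicase group eIF4 was mixed, with 11 genes tested, 3 below, 1 above and a median log2 fold change of 0.11. Of all genes, 19.3% were below and 14.5% above. With protein-coding sums set equal the median was 0.54, with 1 below (Eif4a1) and 5 above (Eif4a3, Eif4e2, Eif4e3, Eif4g1 and Eif4g3). Under that scaling 8.82% of all genes were below and 31.6% above. Eif4a1, the main eIF4A helicase, had 303 and 209 scaled reads in KO, against 406 and 391 in WT (log2 fold change -0.66, SE 0.44, limma adjusted p = 0.945). Its paralog Eif4a2 had 110 and 44.8 in KO and 73.3 and 56.9 in WT, and Eif4a3, the exon junction complex helicase, had 21.3 and 26.3 in KO and 25.5 and 21.6 in WT. In scaled reads only Eif4a1 of the 3 separated the groups. Per kilobase of exon, Eif4a1 averaged 59.0 in KO and 92.0 in WT, Eif4a2 averaged 14.5 in KO and 12.2 in WT, and Eif4a3 averaged 11.2 in KO and 11.1 in WT, so Eif4a1 led in both groups.

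Eif4b, which stimulates the helicase, had 234 and 137 scaled reads in KO, against 252 and 268 in WT, and the separation came mainly from KO 8. Its relative Eif4h had 85.1 and 138 in KO and 83.8 and 115 in WT. Eif4e, the cap-binding protein, had 30.3 and 26.8 in KO, against 31.8 and 38.1 in WT, with a log2 fold change of -0.28 that became 0.14 with protein-coding sums set equal. Eif4e2, known as a translational repressor that binds the cap, had 15.6 and 12.4 in KO and 17.0 and 14.6 in WT. Eif4e3 had 14.5 and 15.5 in KO, against 7.14 and 11.8 in WT, the only eIF4 gene with both KO values above both WT values in scaled reads (log2 fold change 0.65, SE 0.47, limma adjusted p = 0.954).

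The scaffolds overlapped between groups in scaled reads. Eif4g1, which bridges cap and ribosome, had 204 and 177 scaled reads in KO and 206 and 148 in WT, and Eif4g3 had 91.5 and 95.3 in KO and 102 and 73.4 in WT. Eif4g2 (DAP5), which lacks the eIF4E-binding part, had 194 and 529 in KO and 181 and 281 in WT. KO 8 was the highest library for it, with 0.195% of nuclear protein-coding reads, against 0.0577% in KO 1, 0.0446% in WT 3 and 0.0685% in WT 6. Per kilobase of exon Eif4g2 averaged 35.6 in KO and 22.7 in WT, Eif4g1 26.1 in KO and 24.2 in WT, and Eif4g3 8.44 in KO and 7.91 in WT, so in WT Eif4g1 and Eif4g2 did not differ beyond their spread.

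Of the proteins that bind eIF4E, 2 of 3 tested were lower in both KO libraries, with a median of -0.32. With protein-coding sums set equal the median was 0.10, with 0 below and 1 above. Eif4ebp1, the repressor released by mTORC1 phosphorylation, had 16.7 and 17.8 scaled reads in KO, against 20.7 and 26.4 in WT (log2 fold change -0.42). Eif4ebp2 had 29.7 and 41.7 in KO, against 42.7 and 46.1 in WT, where KO 8 and WT 3 nearly met (log2 fold change -0.32, and 0.10 with the sums set equal). Eif4enif1, the eIF4E transporter, had 49.04 and 36.3 in KO and 49.6 and 28.9 in WT, and was above with the sums set equal.

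The eIF2 group and the factors that handle initiator tRNA had 1 of 6 tested genes below, 1 above and a median of -0.14. With protein-coding sums set equal these became 0 below, 1 above and 0.28. Eif2s2, the beta subunit, had 63.3 and 61.8 scaled reads in KO, against 38.8 and 40.0 in WT, and the replicates of each group were close (log2 fold change 0.65, SE 0.40, limma adjusted p = 0.934). Eif2s1, the alpha subunit whose phosphorylation stops initiation under stress, had 35.6 and 44.8 in KO and 42.1 and 52.1 in WT. Eif2s3x, the gamma subunit, had 49.9 and 58.8 in KO and 50.8 and 62.9 in WT. So the beta subunit alone of the trimer separated the groups, and its direction was opposite to that of the elongation factors. Eif2a had 18.0 and 13.4 in KO, against 21.0 and 19.4 in WT, with a log2 fold change of -0.36 that became 0.05 with protein-coding sums set equal. Eif2d had 28.1 and 18.3 in KO and 32.6 and 21.9 in WT.

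The Y-linked copy of the gamma subunit, Eif2s3y, had 48 and 27 reads in KO and 86 and 5 in WT. WT 6 was the low library, and it was also the one with the highest Xist (5.40 scaled reads, against 0.880 and 0.515 in KO and 1.35 in WT 3). Ddx3y, another Y-linked gene, had 20.7 and 27.3 scaled reads in KO and 49.4 and 20.0 in WT, so in WT 6 it was close to KO 1. The 2 copies are shown for the shared promoter letters, RefSeq build GRCm38.p6, 30 bases on each side of the start, Eif2s3x at chrX:94212622-94212681 (minus) and Eif2s3y at chrY:1010565-1010624 (plus). Capitals mark the pyrimidine run and the letters AAGATGGC, which both copies hold in the same order.
Eif2s3x: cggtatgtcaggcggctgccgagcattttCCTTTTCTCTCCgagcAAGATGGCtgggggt
Eif2s3y: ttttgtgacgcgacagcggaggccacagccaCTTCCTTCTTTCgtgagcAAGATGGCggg

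eIF2B, the exchange factor that recharges eIF2, had 5 genes tested and a median of -0.01, which became 0.39 with protein-coding sums set equal. Eif2b4, its delta subunit, had 9.90 and 10.3 scaled reads in KO, against 22.2 and 14.3 in WT (log2 fold change -0.76, SE 0.46, limma adjusted p = 0.934). Its groups overlapped with protein-coding sums set equal, where 0 of the 5 genes were below and 1 was above. The other 4 overlapped in scaled reads (Eif2b3 was above with the sums set equal), from 6.82 to 19.3 in KO and from 6.04 to 23.0 in WT. All 5 were higher in WT 3 than in WT 6.

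The scanning factors, which hold the small subunit open while it searches for the start codon, had a median of 0.24 with all 5 positive and none separating the groups. With protein-coding sums set equal the median was 0.66, and Eif1, Eif1ad, Eif1ax and Eif1b (4 of the 5) had both KO libraries above both WT libraries. Under that scaling 31.6% of all genes were above. Eif1, which guards start codon choice, had 61.1 and 80.9 scaled reads in KO and 32.0 and 65.8 in WT. Eif1ax had 28.6 and 41.0 in KO and 24.9 and 33.4 in WT, and its relative Eif1a had 25.5 and 40.2 in KO and 15.1 and 32.1 in WT. For these 3 genes the order of the libraries was the same, KO 8 first and WT 3 last. Eif1b and Eif1ad were between 5.50 and 13.7 in KO and between 4.83 and 12.4 in WT.

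The factors of subunit joining and the late steps split in both directions, 2 above and 2 below of 5 tested, with a median of -0.14. These became 2 above, 1 below (Eif6) and 0.19 with protein-coding sums set equal. Eif5b, the GTPase that joins the large subunit, had 76.3 and 69.3 scaled reads in KO, against 35.5 and 45.1 in WT, the highest log2 fold change among the tested members (0.85, SE 0.41, limma adjusted p = 0.926). Eif5, which triggers GTP hydrolysis by eIF2, had 106 and 135 in KO, against 66.8 and 89.3 in WT (log2 fold change 0.62). Both genes separated the groups upward.

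Eif6, which keeps the large subunit from joining too early, had 68.6 and 59.5 scaled reads in KO, against 112 and 120 in WT (log2 fold change -0.85, SE 0.40, limma adjusted p = 0.926). Eif5a, the hypusinated factor that helps the ribosome through stalls, had 168 and 138 in KO, against 200 and 244 in WT (log2 fold change -0.54). Its paralog Eif5a2 had 1.32 and 4.64 in KO and 1.16 and 6.35 in WT, so per kilobase of exon Eif5a averaged 64.2 in KO and 93.5 in WT, and Eif5a2 averaged 0.593 in KO and 0.747 in WT. Of the hypusination enzymes, Dohh had 11.4 and 11.9 scaled reads in KO, against 14.7 and 20.0 in WT, and Dhps overlapped. Neither passed the test.

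The start regions of members higher in both KO libraries are shown as well. Those of Eef2 and the eIF3 genes were chosen partly for holding a run, so the 2 sets cannot be compared for runs. Other members lower in both KO libraries, such as Eef1b2 and Eif4a1, also had no run near the start. They are RefSeq's, GRCm38.p6, 30 bases on each side of the start, Eif2s2 at chr2:154892877-154892936 (minus), Eif5 at chr12:111538071-111538130 (plus) and Eif5b at chr1:37997980-37998039 (plus). None holds a pyrimidine run or another of the searched motifs, so none has capitals. Eif4e3, the remaining gene of that kind, is named only.
Eif2s2: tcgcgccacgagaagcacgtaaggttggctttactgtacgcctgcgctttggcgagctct
Eif5: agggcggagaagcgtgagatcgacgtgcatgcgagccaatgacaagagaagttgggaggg
Eif5b: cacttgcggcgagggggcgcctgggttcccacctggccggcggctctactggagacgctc

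The 3 enzymes tested that modify elongation factors were low in all libraries or overlapped, with a median of -0.54. The median was -0.19 and all 3 overlapped with protein-coding sums set equal. Eef2k, the kinase that inhibits eEF2, had 44.0 and 30.4 scaled reads in KO and 47.7 and 24.5 in WT. The methyltransferases Eef2kmt (5.50 and 2.84 in KO, against 5.60 and 6.99 in WT) and Eef1akmt1 (1.76 and 2.32 in KO, against 3.09 and 3.81 in WT) had both KO values below both WT values, in a range of few reads.

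**Figure D4:**
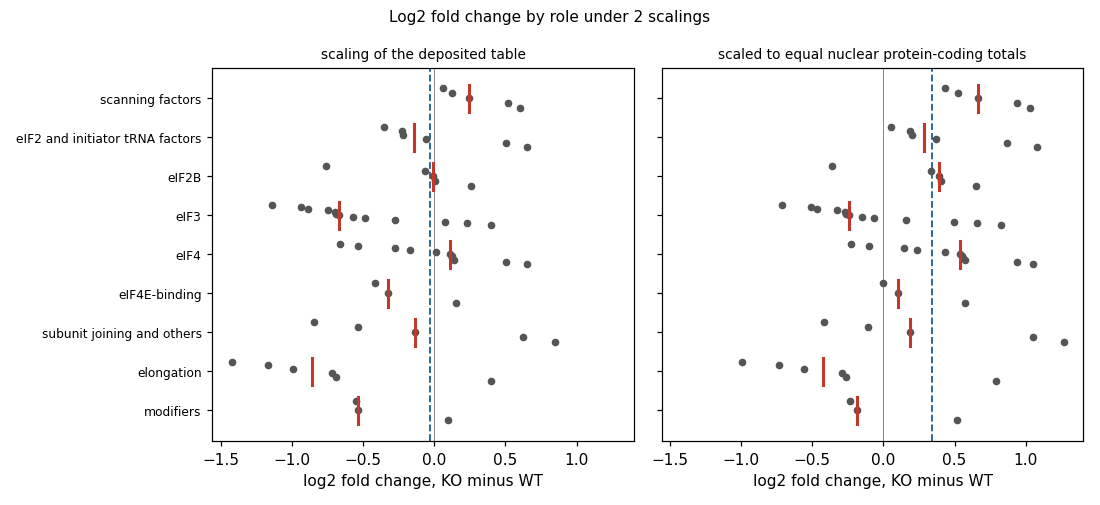
Log2 fold change (KO over WT) of the 57 tested members by role under the table's scaling and with protein-coding sums set equal. Points are genes, the red bar is the role's median and the blue dashed line is the median of all tested genes (-0.03 and 0.34), and the medians of the elongation factors (-0.86 and -0.43) and eIF3 (-0.67 and -0.24) lie under that line in both.

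A list of 9 members known for TOP mRNAs had 7 below (each KO library under each WT library), 0 above and a median log2 fold change of -0.72 (-0.55 in KO 1 and -0.94 in KO 8). The 48 other tested members had 16 below, 4 above and a median of -0.00. Of all genes, 19.3% were below and 14.5% above. The list includes most of the elongation factors, so its values are not separate from theirs. The 83 ribosomal protein genes, the largest family of TOP mRNAs, held 4.23% and 3.47% of nuclear protein-coding reads in KO, against 4.29% and 5.76% in WT. Both KO shares were lower, but KO 1 and WT 3 nearly met. Of the 81 ribosomal protein genes tested, 62 were below and 0 above, against 19.3% and 14.5% of all genes. Their median was -0.74 (-0.31 with protein-coding sums set equal). After adjustment 0 passed the limma test, and 11 had an unadjusted p under 0.05, a level that 5.25% of all genes reached.

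Promoter windows of RefSeq (from -250 to 50 relative to the start, GRCm38.p6) matched 46 of the 59 members, with 60 windows. A gene was counted as holding a motif if any of its windows did. A pyrimidine run near the start was found for 17 of the 46 (37.0%), against 26.5% of the 9891 protein-coding genes of the table with a window. It was found in 22.2% of all 32851 windows, which were counted singly and so are not a like measure. The run was found for 8 of 17 matched members that were below, 8 of 25 with overlapping libraries and 0 of 3 above, and the letters CCGGAAG gave the same counts. On either strand, the letters CCGGAAG (the ETS core) were in the windows of 34.8% of the members, against 19.7% of the table's genes and 8.86% of all windows. The letters CACGTG (the MYC/MAX E-box) were in 26.1% of the members, against 11.5% of the table's genes and 7.15% of all windows. The letters AAGATGGC were in 13.0% of the members, against 5.17% of the table's genes and 2.75% of all windows. These are matches of letters and say nothing of binding.

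Coding length was compared with the fold change across genes, which share their libraries. The Spearman correlation of coding length with the log2 fold change was 0.02 over 57 members and 0.08 over 11593 protein-coding genes. By library the members gave 0.16 in KO 1 and -0.10 in KO 8, so their near-zero value hides opposite signs. All protein-coding genes gave 0.21 in KO 1 and -0.02 in KO 8. Within eIF3 it was 0.42 over 13 genes (0.29 in KO 1 and 0.41 in KO 8), where Eif3a, Eif3c and Eif3b are the longest.

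Other genes of translational control were read as fixed lists, and 0 of them passed the limma test or had an unadjusted p under 0.05. Of 22 tested genes of the mTORC1 pathway, 5 were below (22.7%, against 19.3% of all genes) and 1 above (4.55%, against 14.5%), with a median of -0.06. Ddit4, an inhibitor of mTORC1, had 50.8 and 47.4 scaled reads in KO, against 91.1 and 82.6 in WT, and Sesn2, which lowers mTORC1 activity when leucine is short, had 6.38 and 3.09 in KO, against 9.46 and 9.85 in WT. Mlst8, a subunit of the complex itself, had 5.94 and 4.12 in KO, against 10.04 and 9.53 in WT. Of 6 eIF2 kinases and phosphatase subunits, Eif2ak2 (PKR, activated by double-stranded RNA) was the one above, with 16.1 and 11.1 in KO, against 7.72 and 7.31 in WT. Of 15 cap-complex partners 3 were below and 3 above, with Mcts1 at 5.50 and 2.58 in KO, against 8.49 and 6.99 in WT. Of 9 mitochondrial translation factors 2 were below and 1 above, with Tufm, the mitochondrial elongation factor, at 26.8 and 19.8 in KO, against 39.4 and 36.5 in WT. The 5 tested termination and recycling genes and the 2 selenocysteine factors all overlapped.

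In the authors' deposited table, 0 of the 59 members had an adjusted p under 0.05, where 106 of the 14157 genes did. The 2 members with an unadjusted p under 0.05 in the authors' deposited table were Eef1a2 (adjusted p = 0.323) and Eif3j2 (adjusted p = 0.241), both of them low genes that did not pass the filter used here. The share of all genes at the authors' unadjusted level was not counted, so these 2 are no result about the members.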

How the data were processed

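RNA-seq libraries were made with an Illumina TruSeq kit from total RNA, per the labels' protocols. The deposited table holds, per gene and library, a signal of scaled reads, and the authors' mean log2 CPM, log2 fold change, p-value and adjusted p-value. The submitters' processing notes name DESeq and mm9 without a version or role, and the aligner and counter are not given in the sources used here. Dividing each library by the value of 1 read gave whole reads for 100% of values (tolerance 0.001). Since the values are scaled, the main test was limma 3.58.1 (R 4.3.3, trended) on log2(value + 1), after dropping genes that reached a value of 1 in fewer than 2 libraries, with Benjamini-Hochberg adjustment and a threshold of 0.05, so fold changes of low genes are understated. edgeR 4.0.16 and DESeq2 1.42.0 were run on the recovered reads as alternatives. Scaling to protein-coding totals, quantile normalization, a pseudocount of 0.1, no filter and leaving out each library were also tried. Only the main limma fit was tested on simulated data.

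The members, role groups and other lists were chosen with earlier results of these data known. All members could be named, with values in every library for the most abundant and for those whose groups did not overlap, and up to 4 genes per other list by smallest p. The symbol pattern for ribosomal proteins also matched S6 kinases, Rps19bp1 and pseudogene rows, which were removed. Exon and coding lengths are from GENCODE M21 (GRCm38), and promoter letters from RefSeq (GRCm38.p6), a later build than mm9, so no position was set against the reads. Counting of reads shared by paralogs and strand use are not given in the sources used here. Eif4ebp3, Eif4e1b, Eef1akmt2, Eef1akmt3, Eef1akmt4 and Eef1aknmt were not analysed here.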

Additional observations from a re-analysis of the deposited data

How the results depend on the processing

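No member passed the threshold under limma, edgeR, DESeq2 or any other alternative, and the smallest adjusted p was 0.0764 (Eef2, limma without KO 1). The 27 members with separated groups kept their direction in 294 of 297 values. Much of that count was fixed in advance. The members were picked for their separation, so leaving out a library could not reverse them. Limma without a trended prior or without the filter gave the same fold changes as the main fit. Eif2a (0.054), Eif4e (0.14) and Eif4ebp2 (0.10) reversed with protein-coding sums set equal. There the members' median log2 fold change became 0.20, while 11 members were below and 18 above. The median was -0.13 with quantile normalization and -0.18 with a pseudocount of 0.1, and leaving out 1 library gave -0.27 (without WT 6) to -0.11 (without WT 3). The distance from the median of all genes, chosen after seeing the data, was -0.14, and became -0.20 with edgeR and -0.25 with DESeq2. Leaving out 1 library gave -0.18 (without WT 6) to -0.087 (without KO 1). Of all genes, 1 passed in limma, 0 with edgeR (520 at an unadjusted p under 0.05), 52 with DESeq2, 0 with a pseudocount of 0.1 and 2 without a filter. Leaving out 1 library gave 0 (without WT 3 or WT 6) to 510 (without KO 1), with 6 without KO 8. Members with separated groups numbered 34 (without KO 8) to 48 (without WT 6), and those above 6 (without KO 8) to 15 (without KO 1), since fewer libraries overlap less. The shares of all genes with a library left out were not counted, so these numbers are no result about the members. The log2 ratio of elongation to initiation reads, KO over WT, was -1.43 (without KO 1) to -0.49 (without KO 8). With 1 library left in a group, its spread is assumed to be that of the other group. No paired analysis was possible because KO and WT share no replicate number. The cause of these shifts was not tested. Members with few reads, such as Eef1a2, Eif3j2 and Eif5a2, are limited by depth.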
